A study of Mus musculus with 63 samples.

Results

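The genes described here encode the proteins of the cytosolic ribosome in mouse dorsal hippocampus. Members were taken by symbol and type from the GENCODE M21 annotation: names that start with Rpl or Rps and follow the standard pattern, of type protein coding, with a mean of at least 1 CPM (the count of a gene scaled by the total of its library) over the 63 libraries. Of 55401 genes in the deposited gene table, 81 matched the pattern and 78 reached the level, 47 of the large subunit and 31 of the small subunit. Just inside the level stood Rpl29 at 5.64 CPM and Rps27l at 9.35, and just outside it Rpl3l at 0.34 and Rpl39l at 0.052, while Rpl10l had 0 counts.

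Adolescent C57BL/6J and DBA/2J mice, both inbred, gave RNA from the dorsal hippocampus. Males and females received an acute injection of ethanol (1.5 g/kg, EtOH) or saline (SAL), and were fear conditioned (FC) or served as unconditioned controls (noFC). The 16 groups of strain, sex, drug and conditioning held 4 libraries each, except conditioned C57BL/6J males given saline with 3. That gave 31 C57BL/6J libraries (16 EtOH and 15 SAL) and 32 DBA/2J libraries (16 EtOH and 16 SAL). The tissue was a whole dissected region, so fewer cells of a type and less RNA per cell cannot be told apart. The labels do not say that libraries are separate animals, so the p-values measure the spread between these libraries.

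The cytosolic ribosome joins a small subunit, which reads the messenger RNA, to a large subunit, which forms peptide bonds. Its protein genes are expressed in nearly all cells, and many of their messages begin with a run of pyrimidines at the cap (the TOP motif) through which the growth kinase mTOR controls their translation. In neurons ribosomal protein messages are abundant in cell bodies and also found in dendrites and axons. These short, highly expressed genes have also left many intronless copies (processed pseudogenes) across mammalian genomes, and a short read from the parent gene can match a copy as well.

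Near-identical copies matter for every value below, because reads of 75 bases were used. In 75 of the 78 members at least 1 stretch of 75 bases also stood in an annotated copy, meaning a pseudogene or a single-exon coding gene, and the 75 members had 686 copies in all. Rpl7a had the most, 64. Rplp2 and Rps3 were among the 3 that had none by this rule. They still shared 13.5% and 1.47% of their windows of 75 bases with other genes. The median member shared 19.2% of its windows of 75 bases with another gene, from 0 to 78.1% for Rpl23a. The pairs below show how alike parent and copy are for 3 members whose values differed between strains. Each line gives 60 bases of coding sequence, 5′ to 3′ on the coding strand, from GENCODE M21 transcripts (GRCm38), with capitals where parent and copy differ. Rpl3 (chr15:80077791-80091868, minus strand) is shown from coding base 1 to 60. Rpsa (chr9:120127689-120132369, plus strand) is shown from 160 to 219 and Rplp0 (chr5:115559467-115563727, plus strand) from 388 to 447.
Rpl3: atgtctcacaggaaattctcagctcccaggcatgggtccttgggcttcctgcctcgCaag
Rpl3-ps1: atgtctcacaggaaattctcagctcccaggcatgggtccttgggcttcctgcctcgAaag
Rpsa: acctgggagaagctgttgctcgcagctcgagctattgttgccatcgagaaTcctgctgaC
Rpsa-ps10: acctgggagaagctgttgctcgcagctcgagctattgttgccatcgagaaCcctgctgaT
Rplp0: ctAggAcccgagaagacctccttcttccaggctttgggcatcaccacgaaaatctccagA
Gm8730: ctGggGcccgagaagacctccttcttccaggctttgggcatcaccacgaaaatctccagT
Over the whole coding sequence Rpl3-ps1 differed from Rpl3 at 5 of 1212 bases, Rpsa-ps10 from Rpsa at 9 of 888 and Gm8730 from Rplp0 at 12 of 954. Each of the 3 copies was the most identical one of its parent.

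Gene counts per library ran from 21027659 to 61631742 (median 26379948), no pair of libraries was alike within counting noise, and no member had 0 counts in any library. Excitatory neuron markers of the hippocampus were high in every library, with a summed level of 5420 to 8460 CPM. Choroid plexus markers ranged from 30.6 to 12000 CPM between libraries. One of the 4 libraries of DBA/2J females, noFC, SAL stood apart in the members and is called the outlying library. It carried 0.932% of its counts on the 78 genes, against 0.768% in the next highest of the 63 libraries, and it was the highest DBA/2J library for 74 of the 78 members. Its excitatory neuron markers were the second lowest of the 32 DBA/2J libraries. It stood apart in other lists too. In mean log2 CPM it was the highest of the 63 for nuclear respiratory chain genes (6.04) and other TOP messages (7.13). For mitochondrial ribosomal protein genes it shared the highest value (4.57). It was the lowest for genes around mTOR and Myc (5.31) and shared the lowest value for ribosome biogenesis genes (4.84). The members' results by strain, ethanol, conditioning and sex are given with and without it.

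Together the 78 genes held 0.696% ± 0.0397 (SD, n = 31) of the counts in C57BL/6J and 0.697% ± 0.0553 (SD, n = 32) in DBA/2J. The lowest, median and highest library were 0.609, 0.698 and 0.762% in C57BL/6J and 0.621, 0.690 and 0.932% in DBA/2J. The ranges overlapped, and without the outlying library the DBA/2J range ended at 0.768%. Counts on large subunit genes were 1.60 ± 0.0198 times those on small subunit genes in C57BL/6J and 1.61 ± 0.0273 times in DBA/2J. Per kilobase of summed exon length, the highest mean levels belonged to Rplp1 (559 CPM per kilobase), a protein of the stalk that recruits elongation factors, then Rps15, Rpl4 (209), which lines the exit tunnel, Rps29 (182) and Rpl8 (135). The lowest belonged to Rpl29 (5.01), Rpl21 (6.88), Rpl36al (7.39), Rps27l (11.5) and Rpl18 (12.9). Rpl36al and Rps27l are paralogs of Rpl36a and Rps27, and stood at 10 and 9.35 CPM against 47.1 and 79.4 CPM for those partners.

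The strain comparison asked which members differ between DBA/2J and C57BL/6J whatever the treatment. Of 78 members 49 were called (62.8%), 33 above and 16 below C57BL/6J, against 50% of all 19974 genes tested (25.5% higher and 24.5% lower). At an unadjusted p under 0.05 it was 54 members against 55.1% of genes, and 26 members against 48.7% of genes lay below 0. All log2 differences for strain are DBA/2J minus C57BL/6J, and "called" means adjusted p below 0.05 in edgeR's quasi-likelihood test with Benjamini-Hochberg adjustment. The 33 that rose did so by 0.05 to 0.24 on the log2 scale, while the 16 that fell ranged from -0.05 to -3.64. The median member stood at 0.05 and the median gene at 0.01. Large subunit genes made up 18 of the 33 and 8 of the 16. In 70 of the 78 members the difference was within 0.25. The groups did not overlap in 5 members, all lower in DBA/2J: Rpl29, Rpl21, Rps2, Rplp0 and Rpsa. The share of all genes without overlap was not computed, so these 5 cannot be set against it. DESeq2 called 50 members, and 9975 of the 19974 genes. The lower and the higher run of title numbers (the rounds), fitted alone, called 34 and 37 members. Of all genes they called 7264 of 20598 and 7038 of 19761. Without the outlying library 51 members were called, 33 of them higher and 18 lower, and 9907 of 19974 genes.

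Of the stalk proteins and Rpsa, a small subunit protein, Rplp0 and Rpsa fell. Rplp0 anchors the stalk that recruits elongation factors. Its lowest, median and highest library stood at 107, 132 and 146 CPM in C57BL/6J and at 60.8, 66.1 and 81.2 CPM in DBA/2J. Every DBA/2J library lay below every C57BL/6J library, and the log2 difference was -0.99 (SE 0.02, adjusted p = 6.4e-39). For its stalk partners the values were higher: Rplp1 rose from 263 ± 24.7 to 294 ± 27.1 CPM (log2 0.14, SE 0.03, adjusted p = 1.6e-04), and Rplp2 stood at 84.4 ± 5.86 and 88.9 ± 7.33 CPM (log2 0.06, SE 0.03, adjusted p = 0.061). Rpsa, which also gives rise to the laminin receptor, had values of 105, 118 and 134 CPM in C57BL/6J and 69.0, 74.8 and 96.0 CPM in DBA/2J. It was again lower in every DBA/2J library, by -0.66 (SE 0.02, adjusted p = 4.0e-31).

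Small subunit genes with lower counts in DBA/2J were led by Rps2, which sits near the entry of the messenger RNA channel. Rps2 (ENSMUSG00000044533, chr17:24718116-24721929) had values of 48.8, 56.7 and 67.9 CPM in C57BL/6J and 18.4, 21.4 and 24.6 CPM in DBA/2J. The strains were fully apart, 2.63-fold in the means and -1.41 on the log2 scale (SE 0.02, adjusted p = 4.7e-46). Rps15a ran from 101 to 122 CPM (median 114) in C57BL/6J and from 73.6 to 113 CPM (median 82.4) in DBA/2J, and it fell by 0.45 (SE 0.02, adjusted p = 1.0e-22). The highest DBA/2J value of Rps15a lay inside the C57BL/6J range. Rps18 fell from 64.9 ± 4.81 to 52.2 ± 4.68 CPM (log2 -0.33, SE 0.03, adjusted p = 2.5e-15). Rps3, which binds the incoming message and has no copy, fell from 197 ± 14.1 to 169 ± 18.4 CPM (log2 -0.24, SE 0.03, adjusted p = 1.6e-09). In both genes the ranges overlapped.

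In the large subunit the difference was largest in Rpl29, the member with the fewest counts. Rpl29 (ENSMUSG00000048758, chr9:106429454-106431568) had values of 8.0, 10.6 and 12.7 CPM in C57BL/6J and 0.414, 0.830 and 1.34 CPM in DBA/2J. The means differed 12.4-fold and the log2 difference was -3.64 (SE 0.08, adjusted p = 3.3e-42). Rpl21 (ENSMUSG00000041453, chr5:146832890-146837032) had values of 30.9, 39.5 and 44.2 CPM in C57BL/6J and 6.80, 7.98 and 9.95 CPM in DBA/2J, a 4.82-fold difference of means (log2 -2.29, SE 0.03, adjusted p = 1.8e-48). In both genes the strains were fully apart. Rpl34 fell from 59.9 ± 4.93 to 41.7 ± 4.58 CPM (log2 -0.54, SE 0.03, adjusted p = 3.2e-21). Rpl3, which reaches toward the peptide bond centre, fell from 236 ± 12.9 to 209 ± 13.4 CPM (log2 -0.19, SE 0.02, adjusted p = 2.0e-11).

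The 33 members that rose in DBA/2J differed by at most 0.24 in the gene counts. Rpl15 had values of 51.5, 59.7 and 65.7 CPM in C57BL/6J and 60.2, 71.5 and 83.3 CPM in DBA/2J, with overlapping ranges and a log2 difference of 0.24 (SE 0.03, adjusted p = 4.1e-11). This value depended on the table: Rpl15 was at -0.01 (SE 0.02, adjusted p = 0.75) in the transcript sums and at 0.46 in the gene counts with copies added. Rps27 had values of 62.1, 72.8 and 84.5 CPM against 72.0, 84.3 and 124 CPM (log2 0.21, SE 0.03, adjusted p = 2.2e-08). Rps15 rose by 0.19 and Rps21 by 0.19, Rpl23a by 0.17, and Rpl37a, Rpl28 and Rpl10 by 0.15 each. Rpl11, which with Rpl5 and the 5S RNA forms a particle that can bind Mdm2, rose by 0.14 (SE 0.03), while Rpl5 fell by 0.16 (SE 0.02). Rps25 rose by 0.13 and Rpl27a by 0.12. Rpl4, with the highest CPM of the 78, went from 409 ± 15.4 to 430 ± 25.1 CPM (log2 0.05, SE 0.02, adjusted p = 0.010). Rpl36al rose by 0.12 (SE 0.04, adjusted p = 3.9e-03). Rps4x and Rps27l stood at -0.02 (SE 0.03, adjusted p = 0.59) and 0.00 (SE 0.05, adjusted p = 0.96).

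**Figure D1:**
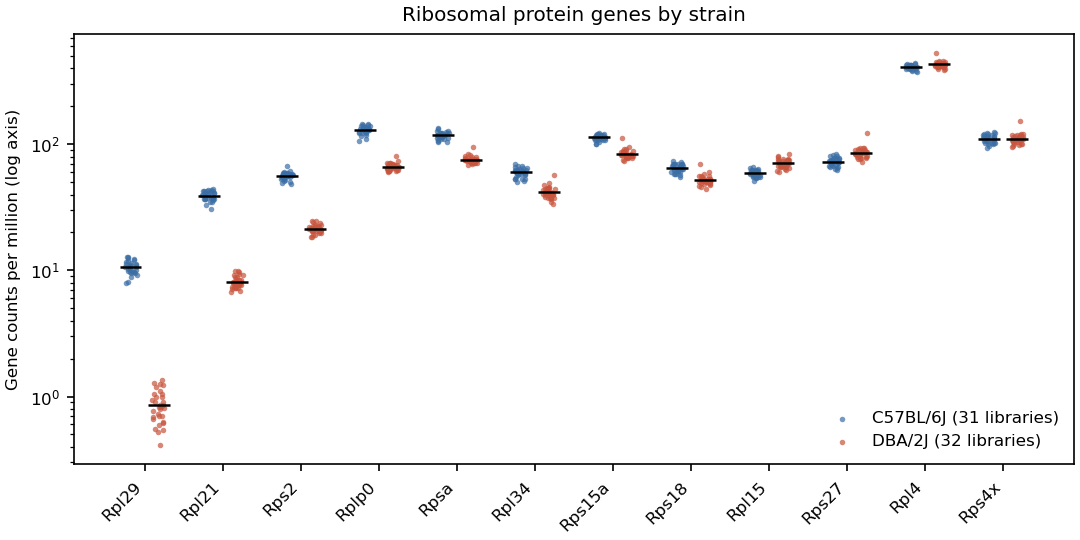
CPM of gene counts on a log axis for 12 ribosomal protein genes. Each point is 1 library, blue for C57BL/6J (31) and red for DBA/2J (32), and the bars are means; Rpl29, Rpl21, Rps2, Rplp0 and Rpsa have no overlap between the strains, and Rpl4 and Rps4x stand at nearly the same level in both.

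The second deposited table, of estimated counts per transcript, gave other strain differences for a few members. Summed over a gene's transcripts, 64 of the 78 members had a strain ratio within 0.05 (log2) of that in the gene counts, and 7 differed by more than 0.4 between the tables, among them Rpl21, Rpl29, Rpl3, Rps18, Rps7 and Rpsa. Rpl3 stood at 432 ± 21.4 and 208 ± 13.8 in the transcript estimates, Rpsa at 343 ± 20.7 and 112 ± 6.76, and Rps18 at 112 ± 8.13 and 33.0 ± 7.62. The strains did not overlap for 7 members in these estimates, all lower in DBA/2J, and the share over all genes was not computed. Rpl29 and Rpl21 differed less in the estimates than in the gene counts. Rpl29 stood at 128 ± 8.94 and 107 ± 8.05 in the estimates, 1.2-fold apart in place of 12.4-fold, and Rpl21 was 1.88-fold apart in place of 4.82-fold. A member's estimate was 1.65 times its gene count at the median, from 0.365 to 20.8 times, with Rpl29 at the top.

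Several members with a low transcript estimate in DBA/2J had an annotated copy that was high there. Rps3, which has no copy by the rule above, shared 1.47% of its windows with another gene. In the transcript sums Rps3 was at -0.22 (SE 0.03, adjusted p = 1.4e-08), near its value in the gene counts. The part of copies in any member's value was not tested. The copy of Rpl3, Rpl3-ps1 on chromosome X, went from 0.296 ± 0.658 CPM in C57BL/6J to 222 ± 14.1 CPM in DBA/2J, and Rpsa-ps10 on chromosome 3 from 1.16 ± 1.41 to 166 ± 11.7 CPM. Gm8730, the copy of Rplp0 on chromosome 8, went from 0.0847 ± 0.144 to 60 ± 4.49 CPM. The strains did not overlap for these 3 copies. Of 669 copies with estimates, 13 stood at 10 CPM or more in DBA/2J and over 10-fold above C57BL/6J. The reverse held for 0 copies, and the cause of this one-sided count was not tested. The 13 copies belonged to 10 members, among them Rpl3, Rpl15, Rpl21, Rpl29, Rpl34, Rplp0, Rps2, Rps18 and Rpsa. These 13 copies matched 97.4 to 99.7% of their parent's coding bases (median 99.2). The median was 94.7% for the other 229 copies, of those members and Rps7, with a coding alignment. The 13 were picked by their level in DBA/2J, so this comparison only describes them and tests no cause. For Rps7 the copy Gm6472 was already at 71.9 ± 7.42 CPM in C57BL/6J and stood at 129 ± 14.3 in DBA/2J. The copies named here were chosen after their values were seen.

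With each member's copies added, most of these differences were smaller in the transcript estimates. Rpl3 plus copies stood at 432 ± 21.5 CPM in C57BL/6J and 431 ± 24.7 in DBA/2J, Rpl21 plus copies at 245 ± 15.1 and 252 ± 20.4, and Rpl34 plus copies at 71.0 ± 5.52 and 69.1 ± 7.12. Among the 78 members 9 differed by more than 0.4 (log2) between strains before copies were added and 1 afterwards. That member was Rps2, whose means with copies stood -0.68 apart (log2) and whose strains stayed fully apart. Fitted across all genes, the log2 differences with copies added were -0.02 (SE 0.02, adjusted p = 0.38) for Rpl3, 0.02 (SE 0.03, adjusted p = 0.43) for Rpl21 and -0.06 (SE 0.03, adjusted p = 0.10) for Rpl34. Rps2, Rpsa and Rplp0 stayed called as lower, at -0.70, -0.32 and -0.15 (SE 0.02 each). Rpl29 and Rps18 turned from -0.28 (SE 0.03) and -1.79 (SE 0.06) in the transcript sums to called values of 0.20 (SE 0.03) and 0.12 (SE 0.03) with copies added.

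**Figure D2:**
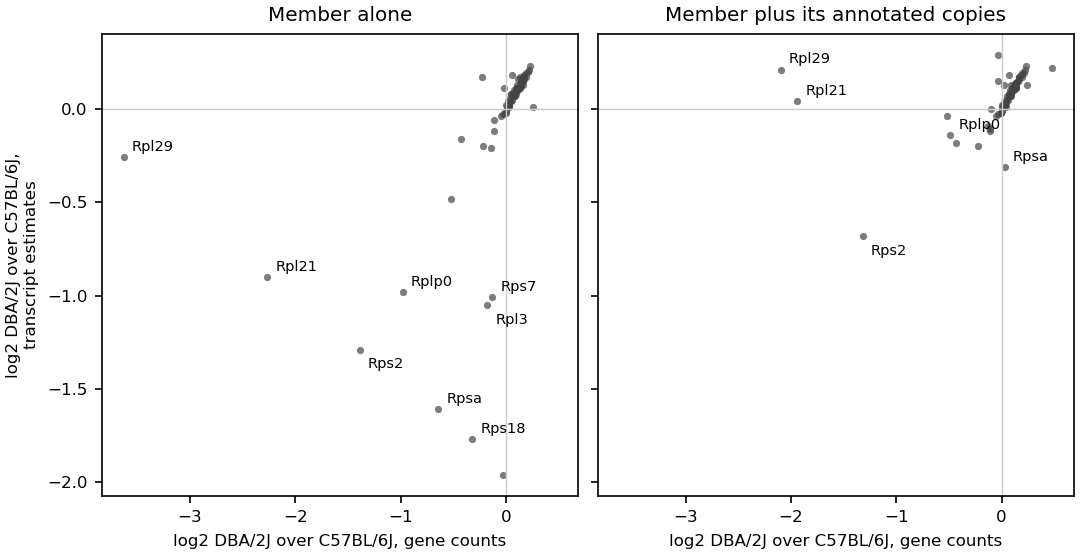
Strain difference of the 78 members as log2 of the ratio of mean CPM (DBA/2J over C57BL/6J), from gene counts on the x axis and transcript estimates on the y axis, for members alone (left) and with their annotated copies added (right). Most members lie on the diagonal near 0; Rps18, Rpsa, Rps7 and Rpl3 are low in the estimates alone, and with copies added only Rps2 is below -0.4 in the estimates.

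In the gene counts the number of members over 0.4 apart was 7 with and without copies, but not the same 7: Rpsa left and Rpl15 entered, at 0.46 (SE 0.03, adjusted p = 6.8e-23) with copies added. Rpsa-ps10 went from 1.59 CPM to 47.1 ± 3.20, and Rpsa plus copies stood at 120 ± 7.57 and 123 ± 7.87 CPM (log2 0.01, SE 0.02, adjusted p = 0.69). Gm10260 went from 0.0792 to 24.4 ± 2.52 CPM, and Rps18 plus copies stood at 65.3 ± 4.86 and 77.2 ± 6.99 (log2 0.22, SE 0.03, adjusted p = 4.3e-09), the opposite direction from Rps18 alone. Rplp0 plus copies stood at 133 ± 9.21 and 94.2 ± 6.31 CPM, and its log2 difference was -0.51 (SE 0.02) in place of -0.99. For Rpl29, Rpl21 and Rps2 the difference stayed large, with copies added: -2.12 (SE 0.06) for Rpl29 and -1.34 (SE 0.02) for Rps2, while Rpl21 plus copies stood at 43.3 ± 3.46 and 11.3 ± 1.12 CPM. Rps15a stayed at -0.45, and was at -0.18 (SE 0.03) in the transcript sums. Its pseudogene Rps15a-ps8, with no identical stretch of 75 bases, went from 0.0299 ± 0.0438 to 8.76 ± 1.19 CPM. It passed the count filter only through the DBA/2J libraries, so no test is given for it. A copy of Rps28, Gm20568, went from 0.108 to 5.74 ± 0.859 CPM while Rps28 went from 39.9 ± 4.44 to 34.0 ± 5.52 (log2 -0.25, SE 0.05), and Rps28 plus copies was not called (log2 -0.05, SE 0.05, adjusted p = 0.42). In the transcript sums Rps28 was higher in DBA/2J (log2 0.15, SE 0.03, adjusted p = 1.6e-04), a call in the opposite direction. Among the gene counts, 10 of the 686 copies stood at 1 CPM or more and were over 10-fold higher in DBA/2J. The reverse held for 0 copies, and the cause was not tested. How multiply matching reads were counted is not given in the sources used here. The strain values of members with near-identical copies are uncertain, and the tables differ on them as given.

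**Figure D3:**
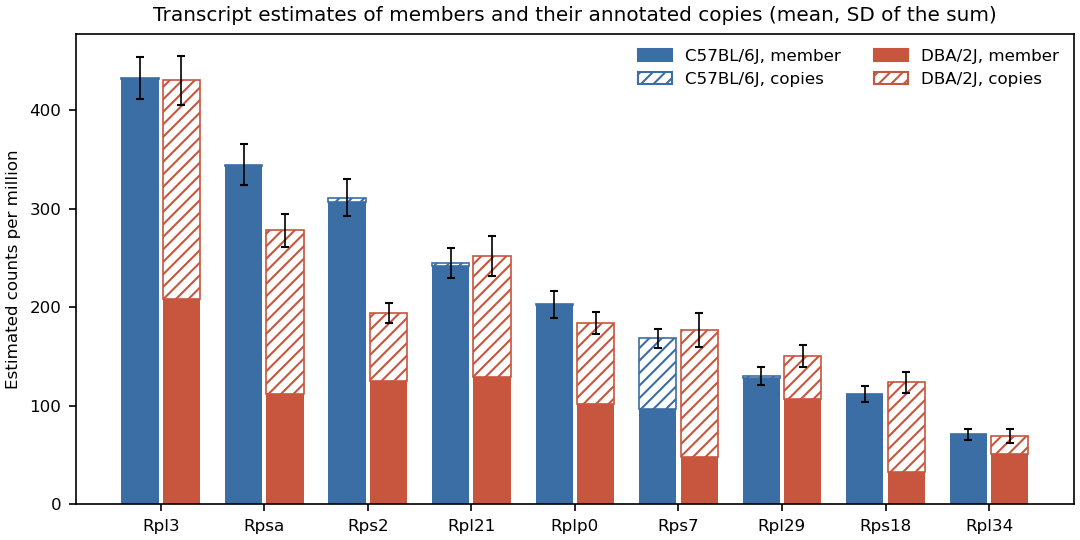
Transcript estimates in CPM for 9 members (filled) and their annotated copies (hatched), means over 31 C57BL/6J (blue) and 32 DBA/2J (red) libraries, with bars of 1 SD of the sum. In Rpl3 the sum is 432 in C57BL/6J and 431 in DBA/2J while the filled part goes from 432 to 208; in Rps2 the sum also falls.

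The split of estimated counts among the transcripts of 1 gene could be tested by strain in 62 members. Of these 18 were called (limma's diffSplice), against 25.6% of the 9564 genes tested. Rps18, Rpl3, Rpl14 and Rpl21 were among the 5 with the smallest p. The coding transcript of Rps18 held 72.8% ± 2.58 of the estimated counts of that gene in C57BL/6J and 27.4% ± 8.85 in DBA/2J (adjusted p = 6.9e-55), and a transcript that retains an intron held 23.2% ± 2.51 and 51.4% ± 5.75. For Rpl3 the main transcript held 92.4% ± 1.30 and 74.7% ± 3.59. These are shares of a sum that was itself 3.39-fold higher in C57BL/6J for Rps18 and 2.08-fold higher for Rpl3. A higher share of a transcript therefore does not mean a higher level. Counts assigned to copies are left out of these sums, and the part of copies in the shares was not tested. Rpl14 stood at 90.5 ± 5.58 and 89.4 ± 5.72 CPM in the gene counts, and its coding transcript rose from 6.66% ± 1.68 to 15.9% ± 2.30 of the estimates (adjusted p = 1.4e-49). The lowest DBA/2J share of that transcript, 11.8%, lay just above the highest C57BL/6J share, 11.7%. The other Rpl14 transcripts, of types subject to decay or without a coding frame, fell from 55.3% ± 1.44 to 50.1% ± 2.64 and from 38.0% to 34.0%.

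The starts of the members were read for the pyrimidine run that marks TOP messages, since the members moved together between libraries (below). The RefSeq promoter table (GRCm38.p6) held 58 of the 78 members by symbol. A run was counted on the coding strand from a C within 5 bases of the annotated start. It went on over the C and T bases that followed, at least 5 bases in all. Pyrimidines further upstream were not counted. Such a run stood in 28 of the 58 members (48.3%) and in 21.2% of the 27025 genes of the table. The 4 longest by this count are shown over 40 bases, 5′ to 3′, with the counted run in capitals: Rpl27a (chr7:109519175-109519214, plus strand), Rpl15 (chr14:18270967-18271006, minus strand), Rpl35 (chr2:39005112-39005151, minus strand) and Rpl13a (chr7:45128726-45128765, minus strand).
Rpl27a: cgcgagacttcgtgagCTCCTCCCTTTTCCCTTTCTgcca
Rpl15: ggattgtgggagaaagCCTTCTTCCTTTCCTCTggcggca
Rpl35: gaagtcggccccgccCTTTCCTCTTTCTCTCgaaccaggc
Rpl13a: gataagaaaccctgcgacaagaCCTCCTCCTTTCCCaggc
The counted run was 20 bases long in Rpl27a, 17 in Rpl15, 16 in Rpl35 and 14 in Rpl13a. In Rpl35 more pyrimidines (cc) stand directly before the capitals, so its whole stretch is longer. Rpl7a and Rpl34, among others, were cut in the same way, so the order holds only for the counted bases. A match describes the letters at the annotated start, not a measured start.

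The members rose and fell together from library to library within a group. In 11 libraries at most 10 of the 78 members lay above the mean of their own group, and in 9 libraries at least 68 did, with extremes of 1 and 78. The group of the outlying library gave 77 for that library and 3, 1 and 35 for the others. The count was not repeated without the outlying library or made for other gene sets. The libraries with few members above the mean were in the higher round of title numbers in 9 of 11 cases, and those with many were in the lower round in 7 of 9. The part of the round in this was not tested. Group means of the summed share ran from 0.654% (DBA/2J males, noFC, EtOH) to 0.747% (DBA/2J females, noFC, SAL), and the SD within groups of 4 ran up to 0.128% in the latter. In that group the 4 libraries stood at 0.932, 0.675, 0.650 and 0.733%. The SD between libraries of a group in the mean log2 level of the members was 0.09.

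**Figure D4:**
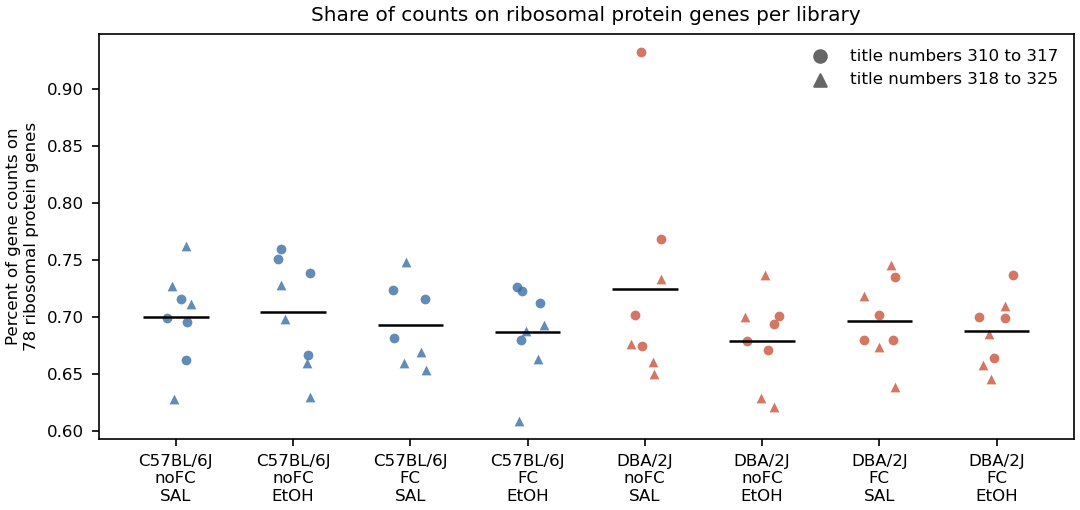
Percent of a library's gene counts on the 78 members, by strain, conditioning and drug. Each point is 1 library, with circles for the lower run of title numbers, triangles for the higher run and bars for means; 1 DBA/2J noFC SAL library stands at 0.932% and all others lie between 0.609 and 0.768%.

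The ethanol comparison asked how members differ between ethanol and saline within a strain. No member was called in either strain. In C57BL/6J 0.0901% of all genes were called. There 48 of 78 log2 differences (ethanol minus saline) were below 0, against 51.7% of all genes, with a median of -0.01, and 0 members against 4.22% of all genes had an unadjusted p under 0.05. In DBA/2J 75 of 78 were below 0 with a median of -0.06, against 48.2% and a median of 0.00 for all genes, and 0.295% of all genes were called. The smallest adjusted p of a member was 0.38 in edgeR, and DESeq2 also called 0. An unadjusted p under 0.05 was reached by 19 of 78 members in DBA/2J, against 8.36% of all genes, and by 12 in DESeq2.

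The share of counts on the 78 genes in DBA/2J had a lowest, median and highest library of 0.639, 0.691 and 0.932% with saline and of 0.621, 0.690 and 0.737% with ethanol, which overlap and have nearly the same median. In C57BL/6J it was 0.628, 0.699 and 0.762% with saline and 0.609, 0.695 and 0.760% with ethanol. In DBA/2J the 3 members with the smallest p were Rps2, Rpl37a and Rpl24. Rps2 stood at 20, 21.9 and 24.6 CPM (lowest, median, highest) with saline and 18.4, 20.7 and 23.7 CPM with ethanol, so the ranges overlapped. Its log2 difference was -0.09 (SE 0.03, 95% interval -0.16 to -0.02, adjusted p = 0.38). Rpl37a stood at 34.7, 38.7 and 51.6 CPM against 34.0, 38.2 and 41.2 CPM (log2 -0.09, SE 0.04, adjusted p = 0.45), and Rpl24 at 76.9, 83.5 and 112 CPM against 66.8, 81.2 and 89.1 CPM (log2 -0.09, SE 0.04, adjusted p = 0.51). In each of the 3 the highest saline value lay above all ethanol values. With the outlying library left out, Rps2 was at -0.08 (SE 0.04, adjusted p = 0.52), Rpl37a at -0.07 (SE 0.03, adjusted p = 0.64) and Rpl24 at -0.06 (SE 0.04, adjusted p = 0.71). In C57BL/6J the 3 smallest p belonged to Rpl10a (-0.07, SE 0.04), Rpl36al (-0.08, SE 0.05) and Rpl37a (0.06, SE 0.04), each with an adjusted p of 1.0. Rpl37a had the largest difference between the strains' ethanol effects by p (-0.14, SE 0.05, 95% interval -0.24 to -0.05, adjusted p = 1.0).

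Without the outlying library the DBA/2J median was -0.03, 74 of 78 members stayed below 0, and 1 member had an unadjusted p under 0.05. Without another library of the same group that count was 34, and leaving out 24 of the 63 libraries, 1 at a time, moved it by over 1.5 times. Leaving out single C57BL/6J libraries, which are not in this contrast, gave 10 to 21. The fits with a library left out kept the dispersion trend (the modelled spread of counts) of all libraries. The main fit set the dispersion otherwise, and the part of this in the changes was not tested. The lower and higher rounds gave medians of -0.08 and -0.03 in DBA/2J, and of 0.03 and -0.06 in C57BL/6J. The difference of ethanol effects between strains had a median of -0.05 over the members with 0 called (0.01% of all genes), of -0.02 without the outlying library, and of -0.11 and 0.03 within the rounds. Its direction turned between the rounds. Of the members 70 lay below 0 (47.6% of genes), and 5 had an unadjusted p under 0.05 (3.6% of genes). Within a round the letter that ends each title goes with drug: A and B were saline in the lower round and ethanol in the higher. Ethanol effects within a round and what the letter stands for cannot be told apart.

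For conditioning, no member was called in either strain, and in edgeR 0% of the 19974 genes were. The unadjusted p was under 0.05 for 1 member in C57BL/6J (3.94% of genes) and for 0 in DBA/2J (3.35% of genes), and DESeq2 called 0 members. In C57BL/6J 75 of 78 log2 differences (FC minus noFC) were below 0 with a median of -0.03 (49.6% of genes below 0), and in DBA/2J 64 were below 0 with a median of -0.02 (49.2% of genes below 0). Rps6, the target of S6 kinase, had the smallest p in C57BL/6J: it stood at 51.2, 55.1 and 63.2 CPM in noFC and 48.2, 53.0 and 57.1 CPM in FC, overlapping (log2 -0.08, SE 0.03, 95% interval -0.14 to -0.02, adjusted p = 1.0). In DBA/2J Rps6 stood at 51.0, 55.1 and 71.7 CPM against 51.0, 55.7 and 62.7 CPM. Rpl18 (-0.06, SE 0.04) and Rpl3 (-0.05, SE 0.03) followed in C57BL/6J, and Rpl27 (-0.07, SE 0.04), Rps10 (-0.08, SE 0.05) and Rpl21 (0.08, SE 0.05) came first in DBA/2J. Without the outlying library the DBA/2J median was 0.01 with 33 members below 0. The rounds gave -0.05 and 0.00 there, and -0.01 and -0.05 in C57BL/6J. The letter that ends each title goes with conditioning throughout, so what it stands for, which the labels do not say, and conditioning cannot be told apart.

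The remaining contrasts called 0 members in edgeR and in DESeq2. The conditioning effect differed between strains by a median of 0.01 (30 of 78 below 0, 48.9% of genes), with 0 members at an unadjusted p under 0.05 (3.63% of genes), by 0.04 without the outlying library, and by -0.04 and 0.05 within the rounds. The ethanol effect differed between conditioned and unconditioned mice by a median of 0.02, by -0.01 without the outlying library, and by 0.05 and -0.01 within the rounds. Of the members 20 lay below 0 (53.8% of genes), 0 had an unadjusted p under 0.05 (2.96% of genes), and Rpl39 had the smallest p (0.17, SE 0.08, adjusted p = 1.0). Males minus females gave a median of -0.02 with 67 of 78 below 0 (48.2% of genes), 4 members at an unadjusted p under 0.05 (5.48% of genes) and 0.2% of all genes called. Without the outlying library 54 were below 0 and the median was -0.01. Rps6 (-0.05, SE 0.02), Rps16 (-0.07, SE 0.03) and Rplp1 (-0.06, SE 0.03) came first, with adjusted p of 0.85 to 0.90. The median standard error of a member's log2 difference was 0.04 within a strain, so differences of a few percent were not detectable one by one.

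**Figure D5:**
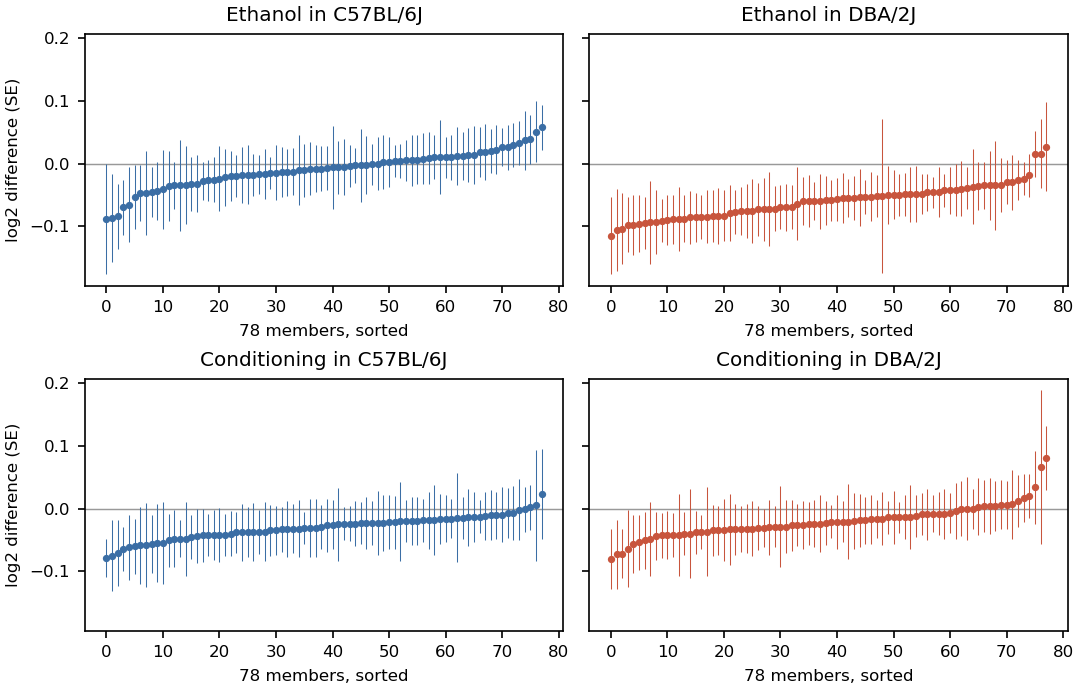
Log2 differences of the 78 members, sorted within each panel, for ethanol (ethanol minus saline, top) and conditioning (FC minus noFC, bottom) in C57BL/6J (blue) and DBA/2J (red), with bars of 1 SE. For ethanol in DBA/2J 75 of 78 points lie below 0 with a median of -0.06, and no point passes the test.

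Other genes of protein synthesis were counted in the same fits. Their strain counts are to be read against the 25.5% of all genes called higher and the 24.5% called lower. Of 78 mitochondrial ribosomal protein genes, whose products build the separate ribosome of mitochondria, 24 were higher and 18 lower in DBA/2J, with Mrpl35 at -0.87 (SE 0.03) and Mrpl20 at 0.39 (SE 0.03). Fau, which encodes a small subunit protein as a fusion and falls outside the symbol rule, rose from 54.0 ± 5.85 to 71.9 ± 7.93 CPM (log2 0.40, SE 0.04, adjusted p = 5.9e-13), more than any of the 33 members that rose. Of 35 initiation factors 7 were higher and 15 lower (Eif3j1 -0.74, SE 0.03), of 9 elongation factor genes 3 were higher and 2 lower (Eef2k -0.21, SE 0.03), and of 20 other TOP messages 7 were higher and 3 lower. Ribosome biogenesis genes had 9 higher and 13 lower of 41, among them Polr1a (-0.53, SE 0.04), the largest subunit of RNA polymerase I, and Ncl (-0.25, SE 0.02). Of 26 genes around mTOR and Myc 9 were higher and 8 lower, led by the translation repressor Eif4ebp1 at 0.80 (SE 0.06). Of 19 genes for ribosomal stress and assembly 6 were higher and 5 lower. Only 17 of these are outside the members: the counts include Rpl11 (higher) and Rpl5 (lower). Of 4 ribosomal protein-like genes 0 were higher and 2 lower. Some genes, such as Eif3e and Eef1g, are counted in more than 1 list. Among 44 tested pseudogenes named after a member, 11 were higher and 3 lower. At least Rps15a-ps8 among them passed the count filter only through the DBA/2J libraries, where it was high.

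For ethanol these lists gave few calls. Ddit4, an inhibitor of mTOR, rose in DBA/2J by 0.20 (SE 0.04, adjusted p = 0.026), and Bbc3, a p53 target, rose by 0.29 (SE 0.06, adjusted p = 0.014) in C57BL/6J and by 0.25 (SE 0.06, adjusted p = 0.027) in DBA/2J. Without the outlying library Ddit4 in DBA/2J was at 0.18 (SE 0.04, adjusted p = 0.047) and Bbc3 was no longer called (0.23, SE 0.06, adjusted p = 0.059). That fit set the dispersion otherwise than the main fit, and the part of this was not tested. Nuclear genes of the respiratory chain had 73 of 74 values below 0 for ethanol in DBA/2J with a median of -0.05 and 0 called. The mitochondrial ribosomal genes had 71 of 78 below 0 with a median of -0.04 and 0 called. With the outlying library left out, the counts below 0 were 69 of 74 and 63 of 78, both with a median of -0.03 and 0 called. All these values rest on the same saline and ethanol libraries.

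Marker genes of cell types were read beside the members. All 7 oligodendrocyte markers fell in DBA/2J, with a median of -0.42, and for ethanol in DBA/2J all 7 were above 0 (median 0.16, 0 called). Their summed level ran from 5010 to 13900 CPM (median 9280) in DBA/2J with saline and from 6930 to 14100 (median 10400) with ethanol. All 7 choroid plexus markers were above 0 for conditioning in DBA/2J with a median of 1.68 and 0 called, and their summed level ran from 30.6 to 7400 CPM in DBA/2J with ethanol and from 51.2 to 10700 with saline. Excitatory neuron markers had medians of -0.01 for ethanol and -0.07 for conditioning in DBA/2J, with 0 of 8 called. Their part in the members' values was not tested.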

How the data were processed

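RNA of 63 libraries was read from 1 end with 75 bases after a stranded poly(A) preparation, per the labels' protocols. Per the submitters' processing notes, the tools were Salmon, featureCounts, HISAT2, fastp and DESeq2, and the build GRCm38; versions and the treatment of multiply matching reads are not given in the sources used here. The authors deposited whole read counts per gene and estimated counts per transcript (expected counts, not whole), which were rounded before fitting. GENCODE M21 gave symbols, types and transcripts by identifier.

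The filter filterByExpr (minimum count 10) left 19974 genes with 99.95% of the counts, and all 78 members passed. TMM factors ran from 0.96 to 1.05. One fit with edgeR 4.0.16 (R 4.3.3) held a coefficient per group, used a prior count of 2 and tested contrasts two-sided, with Benjamini-Hochberg adjustment over all 19974 genes. Each contrast weights the groups of the other factors equally. CPM values use library totals, and 95% intervals are normal ones from the standard error. Transcript usage used voom and diffSplice in limma 3.58.1. Each contrast was also fitted with DESeq2 1.42.0, other scaling, no filter, the transcript sums, pseudogenes or copies added, each library left out and each round of title numbers alone. Fits with a library left out kept the dispersion trend of all libraries, so their p-values are not strictly comparable with those of the main fit. The scripts were tested on simulated data.

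The members and the gene lists were chosen with earlier results of these data known. Named are, among called members, up to 10 in each direction by smallest p, for strain also the 5 with the largest log2 size in each direction, the 3 members with the smallest p where fewer than 3 were called, the stalk proteins with Rpsa, paralogs whose symbol ends in l, al or x, the 5 highest and 5 lowest per kilobase, up to 5 for transcript usage and up to 4 per list. Rps7, Rps28, Rpl5 outside its list, and the copies named Gm were chosen after their values were seen, as were the fits with copies added. Single results of some members are not reported here.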

Additional observations from a re-analysis of the deposited data

Results flagged for a closer look

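The ratio of counts on large subunit genes to counts on small subunit genes had 1 library far from the other 3 in 2 groups of 4. In C57BL/6J males, noFC, EtOH, that library stood at 1.57 and the group mean was 1.60. In DBA/2J males, noFC, SAL, that library stood at 1.56 and the group mean was 1.61. Of 30 such tests, over this ratio and over the summed share of counts, 2 passed the limit, and chance marks about 1 in 20 groups.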

How the results depend on the processing

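The strain count of 49 members ran from 34 (first round of title numbers alone) and 37 (second round) to 53 (library totals only). It ran from 48 to 52 when each library was left out. In the rounds, 34 of the 34 and 36 of the 37 called were among the 49. Of all genes the main fit called 9986 of 19974, and the rounds 7264 of 20598 and 7038 of 19761. Library totals called 10326 of 19974 genes, and leaving out each library gave 9815 to 10127. All contrasts for ethanol, conditioning and sex called 0 members under every alternative run. The number at an unadjusted p under 0.05 for ethanol in DBA/2J (19) was 12 in DESeq2, 7 with the strain fitted alone, 3 in transcript sums, and 1 to 34 when each library was left out. Values that changed sign for strain were, among the members named, with copies added, Rps18 at 0.22, Rpsa at 0.01 and Rps7 at 0.06 in gene counts, and Rps18 at 0.12, Rpl21 at 0.02, Rpl29 at 0.20, Rps7 at 0.05 and Rps28 at 0.13 in transcript estimates. With named pseudogenes added Rpsa was 0.02, and in transcript sums Rpl15 was -0.01 and Rps28 0.15. Rps27l, not called, was 0.01 in the first round, 0.02 with library totals, 0.00 with named pseudogenes and 0.00 to 0.02 without 1 library. In uncalled results transcript sums gave 0.01 for Rps6 by sex, -0.01 for Rps6 in conditioning by strain, -0.02 for Rpl37a with ethanol in C57BL/6J and -0.01 for Rpl21 with conditioning in DBA/2J, the last pair also with copies added (-0.02 and -0.01). The second round gave 0.02 for Rpl12 in ethanol by strain. The cause of these changes was not tested, except that adding copies adds their counts. With the title number as a replicate block 0 members were called for ethanol in C57BL/6J and DBA/2J (medians -0.01 and -0.06), and 29 of 63 libraries correlated best with their own number, a hint from the data and not from the design. Of 93 same-number pairs 32 had a correlation over 0.1 in their deviations from group means over all tested genes (range -0.52 to 0.48), so the numbers were not taken as pairs. Members had a median standard error of about 0.04 within a strain, and what depth adds to it was not tested.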
